A study of Homo sapiens with 6 samples.

Results

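The genes described here were 8 factors and markers of the epithelial-mesenchymal transition (EMT) among the 17222 gene names of an RNA-seq table: *SNAI1*, *SNAI2*, *ZEB1*, *ZEB2*, *TWIST1*, *TWIST2*, *CDH2* and *VIM*. They were taken by gene name from a list of 9, and the ninth, *CDH1*, was not analysed here. H226 is an established cell line labelled as squamous lung carcinoma. The methods text on RNA-seq names BJ cells, a fibroblast line. The labels name H226, as do the study's results text and figure legend for this experiment, and the labels were followed. The cells were transiently transfected with a control antisense oligonucleotide (ASO_CTRL) or with ASO_LINC#3 (ASO_LINC below), directed against the lncRNA *SWINGN* (LINC00565), and RNA from 3 replicates of each was collected after 48 h. *SWINGN* itself was not analysed here, and whether it was depleted was therefore not checked. The model is 1 cell line and 1 oligonucleotide against the lncRNA, and nothing in the labels says whether replicates came from separate cultures, so p-values measure the spread between these libraries.

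EMT is the programme by which epithelial cells loosen their junctions and take on a motile, mesenchymal state. It is driven by a small set of transcription factors, the zinc finger proteins of the SNAIL and ZEB families and the basic helix-loop-helix proteins of the TWIST family, which repress the E-cadherin gene *CDH1* through short E-box sequences. N-cadherin, encoded by *CDH2*, and the intermediate filament protein vimentin, encoded by *VIM*, are the markers most often used for the mesenchymal state, and in carcinomas the programme is associated with invasion.

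Reads on genes ranged from 3686828 to 10546786 per library, and the smallest library was ASO_LINC replicate 3. Within a condition, libraries differed beyond sampling noise (chi-square per degree of freedom from 2.63 to 15.6), and ASO_LINC replicate 3 differed more from ASO_LINC replicates 1 and 2 (14.4 and 15.6) than these did from each other (2.63). The pairs of control libraries were at 13.1, 8.82 and 7.45, so large differences were not limited to ASO_LINC replicate 3. The cell label was looked at through marker genes. Of 14 squamous and lung epithelial markers 4 had counts, among them *KRT5* at 103 ± 12.3 CPM in ASO_CTRL and 69.0 ± 7.87 CPM in ASO_LINC (SD, n = 3). *KRT6A* had 0, 0 and 1 reads in ASO_CTRL and 14, 5 and 4 in ASO_LINC. *SFN* and *KRT15* were higher in every ASO_LINC than in every control library, and *KRT5* was lower in every one (edgeR adjusted p = 0.0192). Of all tested genes, 18.7% were apart in this way on the higher and 17.3% on the lower side. None of the 3 tested markers was called by the thresholds given below. *KRT6A* did not pass the filter on low counts, and with no filter its edgeR adjusted p was 0.00665. The squamous markers *TP63*, *SOX2* and *KRT14* were not analysed here. The mesothelial markers were measured in 7 of 8 cases, with *CALB2* (calretinin) at 601 ± 91.7 CPM in ASO_CTRL. The summed level of the mesothelial list was between 881 and 1069 CPM in the control libraries and between 326 and 438 CPM in the ASO_LINC libraries, and *CALB2* and *LRRN4* fell (log2 fold changes of -1.97 and -1.58, edgeR adjusted p = 0.000195 and 3.3e-05). *CALB2*, at 154 CPM in ASO_LINC, weighs most in this sum. Of the 6 tested mesothelial markers 5 were lower and 1 higher, *MSLN*, at 29.1 and 31.1 CPM with overlapping conditions. Of all tested genes, 49.7% had a log2 fold change above 0. The 2 called markers, *CALB2* and *LRRN4*, were 33.3% of those tested, against 7.54% of all tested genes called and 2.63% called lower. Fibroblast markers, with 3 of 6 measured, summed to between 388 and 486 CPM in the control libraries and to between 221 and 248 CPM in ASO_LINC, and endothelial and leukocyte markers, with 4 of 9 measured, to at most 12.1 CPM in any library. Most of the fibroblast sum was *COL1A1* in the control libraries, with means of 321 CPM in ASO_CTRL and 125 CPM in ASO_LINC. *COL3A1* was at 10.8 and 3.49 CPM, and *THY1* at 117 and 104 CPM with overlapping conditions. The part of these shifts in the results below was not tested.

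In the control cells the 8 genes spanned a wide range of expression. CPM, the reads of a gene scaled to the TMM-adjusted number of reads on genes, were divided by the length of the canonical transcript so that genes could be set beside each other. Whether priming with oligo-dT crowded reads at transcript ends, which would make this scaling uneven, was not tested. *VIM* was by far the most abundant, at 1253 ± 56.0 CPM per kb (SD, n = 3), and by CPM it ranked 31 among the 17222 names. *CDH2* followed at 45.4 ± 2.99 CPM per kb. The transcription factors lay lower, with *TWIST1* at 16.1 ± 1.62, *SNAI2* at 9.28 ± 2.03, *SNAI1* at 4.87 ± 0.160 and *ZEB1* at 2.66 ± 0.348 CPM per kb. *TWIST2* at 1.34 ± 0.682 and *ZEB2* at 0.396 ± 0.0926 CPM per kb closed the order. The ranges of the 3 control libraries did not overlap between any neighbours in this order, and the closest neighbours were *TWIST1* and *SNAI2*, 1.74-fold apart. The place of *TWIST2* rests on 4 to 14 reads per control library. The control cells therefore held abundant mRNA of both mesenchymal markers, and *TWIST1* was the factor with the highest level per length.

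**Figure D1:**
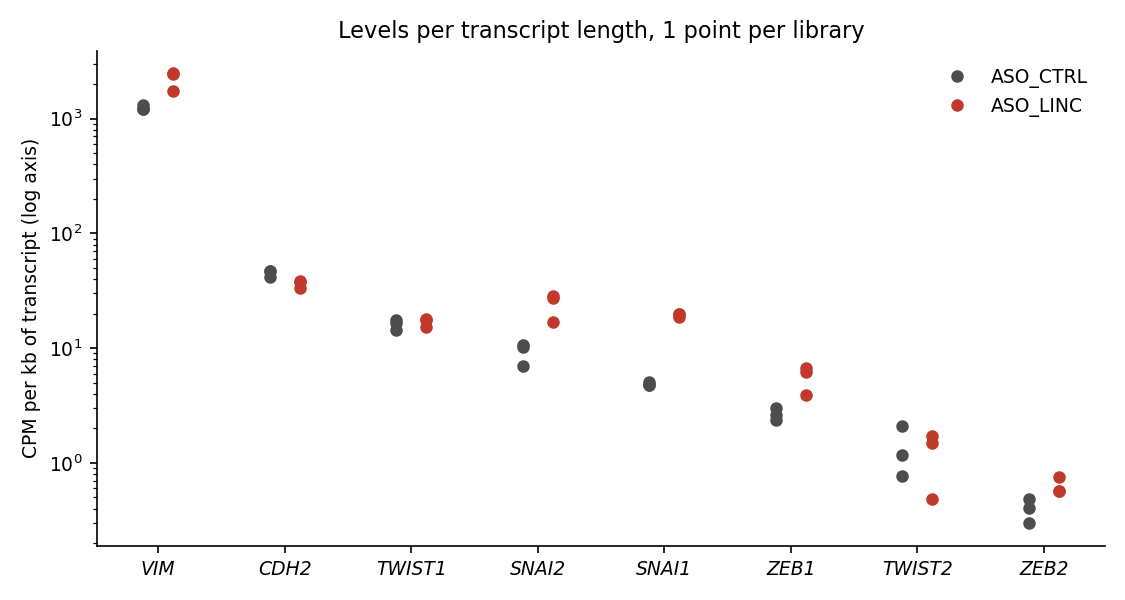
CPM per kb of canonical transcript (log axis) for the 8 genes in the 3 ASO_CTRL (grey) and 3 ASO_LINC (red) libraries, 1 point per library, in the order of the control levels. *VIM* lies at 1253 and *ZEB2* at 0.396 CPM per kb in ASO_CTRL, and the means of *SNAI1* (19.4) and *SNAI2* (24.2) pass that of *TWIST1* (17.1) in ASO_LINC.

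The question of the comparison was which of these genes changed when *SWINGN* was targeted. A gene was called when edgeR's quasi-likelihood test with Benjamini-Hochberg adjustment over all 14660 tested genes put the adjusted p under 0.01 and the fitted log2 fold change was beyond 0.5 in size. Of the 8 genes, 7 were tested and *TWIST2* did not pass the filter on low counts. *SNAI1*, *SNAI2*, *ZEB1* and *VIM* rose in ASO_LINC, none was called lower, and *ZEB2*, *TWIST1* and *CDH2* were not called. The 4 called of 7 tested stand beside 7.54% of all tested genes called, 4.91% called higher and 2.63% called lower. The median log2 fold change was 0.829 over the 7 genes and -0.00272 over all tested genes. In 6 of the 7, the CPM of the 3 ASO_LINC libraries lay on one side of the 3 control libraries, higher in 5 and lower in 1. Of all tested genes this held for 36.1%, higher for 18.7% and lower for 17.3%. The log2 fold change was above 0 in 6 of the 7 genes and in 49.7% of all tested genes. The exact permutation test of log2 CPM gave a two-sided p of 0.1 for each of the 6 genes whose conditions did not overlap, *CDH2* included. This is the smallest that 3 against 3 allow, and *TWIST1* had 0.5.

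**Figure D2:**
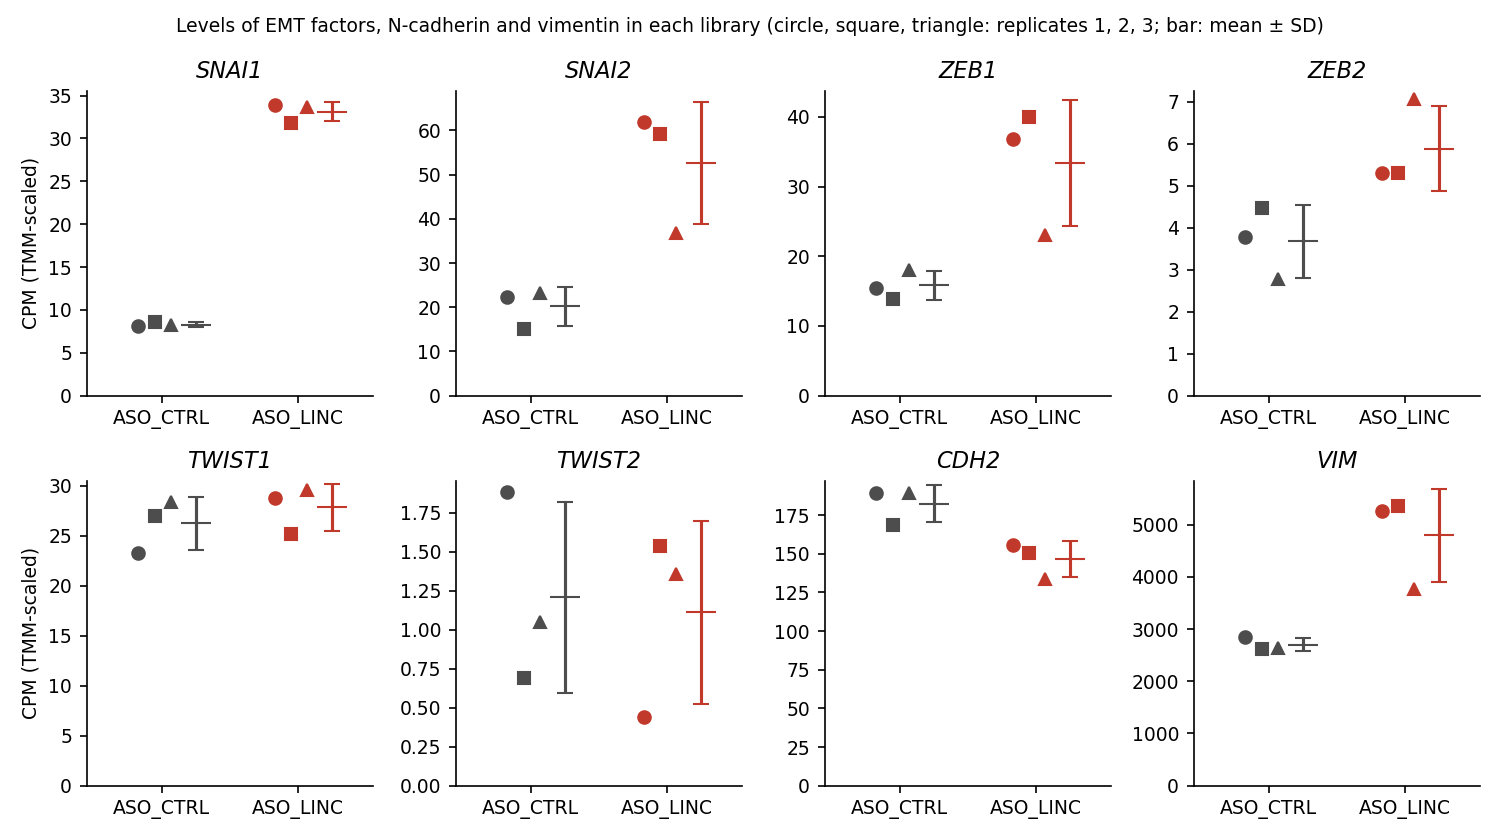
CPM of the 8 genes in each library (linear axes from 0), with the ASO_CTRL libraries in grey and the ASO_LINC libraries in red, replicates 1, 2 and 3 as circle, square and triangle, and bars for mean ± SD (n = 3). The groups are apart for *SNAI1*, *SNAI2*, *ZEB1*, *ZEB2*, *CDH2* and *VIM* and overlap for *TWIST1* and *TWIST2*.

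*SNAI1*, on the plus strand of chromosome 20 of GRCh37 from 48599517 to 48605423, encodes Snail, a zinc finger repressor whose protein is short-lived. Its CPM were 8.08, 8.60 and 8.20 in the control libraries and 33.9, 31.8 and 33.6 in the ASO_LINC libraries, in the order of the replicate numbers. Both groups were tight, and every ASO_LINC library stood far above every control library. The mean rose from 8.30 ± 0.273 to 33.1 ± 1.14 CPM, a fold change of 3.99 with a 95% interval from 3.15 to 5.06. The log2 fold change was 1.997 (standard error 0.16, edgeR adjusted p = 2.94e-05), and 0.935% of all tested genes had a larger increase. *SNAI1* remained called in all 6 fits with a library left out, with log2 fold changes from 1.98 to 2.03.

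*SNAI2*, on the minus strand of chromosome 8 from 49830157 to 49834299, encodes Slug, the second SNAIL family repressor. Its CPM were 22.4, 15.1 and 23.2 in the control libraries and 62.0, 59.2 and 36.9 in ASO_LINC replicates 1, 2 and 3. The groups did not overlap, but ASO_LINC replicate 3 was lower than the other two. The mean rose from 20.2 ± 4.42 to 52.7 ± 13.8 CPM. On the log2 scale this was 1.38 (standard error 0.22, 95% interval from 0.88 to 1.88, edgeR adjusted p = 0.00242). With ASO_CTRL replicate 2 left out the edgeR adjusted p was 0.0126, with ASO_CTRL replicate 3 left out 0.0116 and with ASO_LINC replicate 1 left out 0.0159, so that the call was lost, while the log2 fold change stayed between 1.23 and 1.56. Both SNAIL factors therefore rose, and the log2 ratio of *SNAI2* to *SNAI1* reads within a library was 1.47, 0.82 and 1.499 in ASO_CTRL and 0.87, 0.90 and 0.13 in ASO_LINC. These ratios overlapped between the conditions.

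*ZEB1*, on the plus strand of chromosome 10 from 31607424 to 31818742, encodes a large two-handed zinc finger and homeodomain repressor. Its CPM were 15.5, 13.9 and 18.03 in the control libraries and 36.9, 40.0 and 23.0 in ASO_LINC replicates 1, 2 and 3. Again the groups were apart and replicate 3 was the lowest of the ASO_LINC libraries. The mean rose from 15.8 ± 2.07 to 33.3 ± 9.04 CPM. On the log2 scale this was 1.08 (standard error 0.21, 95% interval from 0.61 to 1.55, edgeR adjusted p = 0.00659). With single libraries removed, the call was kept in 1 of the 6 fits, the one lacking ASO_LINC replicate 3 (log2 fold change 1.27, adjusted p = 8.59e-05). In the other 5 the log2 fold change was from 0.93 to 1.19 and the adjusted p from 0.0242 to 0.0359. The antisense gene *ZEB1-AS1* overlaps 1953 bases of *ZEB1* on the opposite strand. It had 3.91, 3.27 and 4.87 CPM in ASO_CTRL and 9.26, 5.48 and 5.42 CPM in ASO_LINC (log2 fold change 0.74, edgeR adjusted p = 0.0927) and was not called. The strand setting of the counting is not given in the sources used here, so reads in the shared bases cannot be told apart.

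SNAIL and ZEB factors bind the E-box letters CAGGTG, which read CACCTG on the other strand. RefSeq promoter windows of build GRCh38.p14 were held for 5 of the 9 listed genes, *ZEB1*, *ZEB2*, *TWIST2*, *CDH2* and *VIM*, and the 250 bases before each start were searched on both strands. Of all 35116 windows, 17.5% held CAGGTG or CACCTG in these bases and 61.8% held the general form CANNTG, which includes both. Among the called genes with a window, the 1 window of *VIM* held neither form. *ZEB1* had 7 windows, and 2 of them held CAGGTG or CACCTG. These are printed, 5′ to 3′ on the plus strand, because they are the windows of the 9 listed genes that held these letters, with the E-boxes in capitals.
ZEB1, chr10:31318167-31318416: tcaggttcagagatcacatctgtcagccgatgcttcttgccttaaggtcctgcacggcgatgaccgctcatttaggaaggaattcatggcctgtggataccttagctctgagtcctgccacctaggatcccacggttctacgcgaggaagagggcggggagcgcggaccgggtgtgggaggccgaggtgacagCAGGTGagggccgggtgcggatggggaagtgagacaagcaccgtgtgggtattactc
ZEB1, chr10:31318966-31319215: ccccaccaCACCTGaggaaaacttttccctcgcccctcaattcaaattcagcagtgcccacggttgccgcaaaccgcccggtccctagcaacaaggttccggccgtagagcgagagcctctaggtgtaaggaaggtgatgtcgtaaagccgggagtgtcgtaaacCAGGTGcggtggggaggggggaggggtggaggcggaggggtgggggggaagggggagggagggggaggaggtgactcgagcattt
In the former, the E-box began 57 bases before the start. In the latter, the E-boxes began 242 and 85 bases before the start. A match is a description of the letters, and binding was not measured here.

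*ZEB2*, on the minus strand of chromosome 2 from 145121931 to 145278624, encodes the second ZEB repressor. It had 28, 26 and 29 reads in the control libraries and 36, 31 and 26 in ASO_LINC, or 3.77, 4.47 and 2.77 CPM against 5.29, 5.31 and 7.05 CPM. The 3 ASO_LINC values lay above the 3 control values, although the counts were small. The log2 fold change was 0.69 (standard error 0.27, 95% interval from 0.10 to 1.28, edgeR adjusted p = 0.0992), so *ZEB2* was not called. The interval includes the log2 fold change of 1.08 fitted for *ZEB1*, and the log2 ratio of *ZEB1* to *ZEB2* reads, at 2.04, 1.64 and 2.70 in ASO_CTRL and 2.80, 2.92 and 1.71 in ASO_LINC, overlapped between the conditions. A difference between the ZEB genes in their response was not tested.

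*TWIST1*, on the minus strand of chromosome 7 from 19060614 to 19157259, and *TWIST2*, on the plus strand of chromosome 2 from 239756673 to 239832230, encode related basic helix-loop-helix factors. The CPM of *TWIST1* were 23.3, 27.0 and 28.4 in the control libraries and 28.8, 25.2 and 29.6 in ASO_LINC. The conditions overlapped. The log2 fold change was 0.08 (standard error 0.15, edgeR adjusted p = 0.759), with a 95% interval from -0.26 to 0.42, or from 0.837-fold to 1.34-fold. *TWIST2* had 14, 4 and 11 reads in the control libraries and 3, 9 and 5 in ASO_LINC, or 1.21 ± 0.614 and 1.11 ± 0.589 CPM, and no change was detectable at this depth. With no filter on low counts its log2 fold change was -0.19 (edgeR adjusted p = 0.857). The log2 ratio of *SNAI1* to *TWIST1* reads, a pair chosen after the values were seen, was -1.53, -1.65 and -1.79 in ASO_CTRL and 0.24, 0.34 and 0.19 in ASO_LINC. *SNAI1* therefore went from fewer reads than *TWIST1* in every control library to more in every ASO_LINC library.

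*VIM*, on the plus strand of chromosome 10 from 17270240 to 17279592, encodes vimentin, the main intermediate filament protein of mesenchymal cells. Its CPM were 2838, 2619 and 2641 in the control libraries and 5255, 5363 and 3762 in ASO_LINC replicates 1, 2 and 3. The already abundant mRNA rose in every ASO_LINC library, least in replicate 3. The mean went from 2700 ± 121 to 4794 ± 895 CPM, a fold change of 1.78 with a 95% interval from 1.42 to 2.22 (log2 fold change 0.83, standard error 0.14, edgeR adjusted p = 0.00363). As for *ZEB1*, the call was kept only in the fit without ASO_LINC replicate 3 (log2 fold change 0.98, adjusted p = 2.19e-05) among the 6 with a library left out, and in the other 5 the log2 fold change was from 0.74 to 0.87 and the adjusted p from 0.0118 to 0.0253. The antisense gene *VIM-AS1* overlaps 1778 bases of *VIM* and had between 2.17 and 5.31 CPM in all 6 libraries, far below *VIM* itself. The antisense gene of another SNAIL family member, *SNAI3-AS1*, was at 3.06 CPM in ASO_CTRL and 3.03 CPM in ASO_LINC.

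*CDH2*, on the minus strand of chromosome 18 from 25512843 to 25757910, encodes N-cadherin, an adhesion receptor. Its CPM were 189, 168 and 189 in the control libraries and 155, 150 and 134 in ASO_LINC. All ASO_LINC values lay below all control values, the opposite side from *VIM*. The means were 182 ± 12.02 and 147 ± 11.4 CPM, and the log2 fold change of -0.31 (standard error 0.12, 95% interval from -0.59 to -0.04, edgeR adjusted p = 0.107) was not called. The log2 ratio of *VIM* to *CDH2* reads, chosen after the values were seen, was 3.91, 3.96 and 3.80 in ASO_CTRL and 5.08, 5.16 and 4.82 in ASO_LINC. The 2 mesenchymal markers thus moved apart by 1.13 on the log2 scale, a within-library measure that does not depend on the scaling of libraries.

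**Figure D3:**
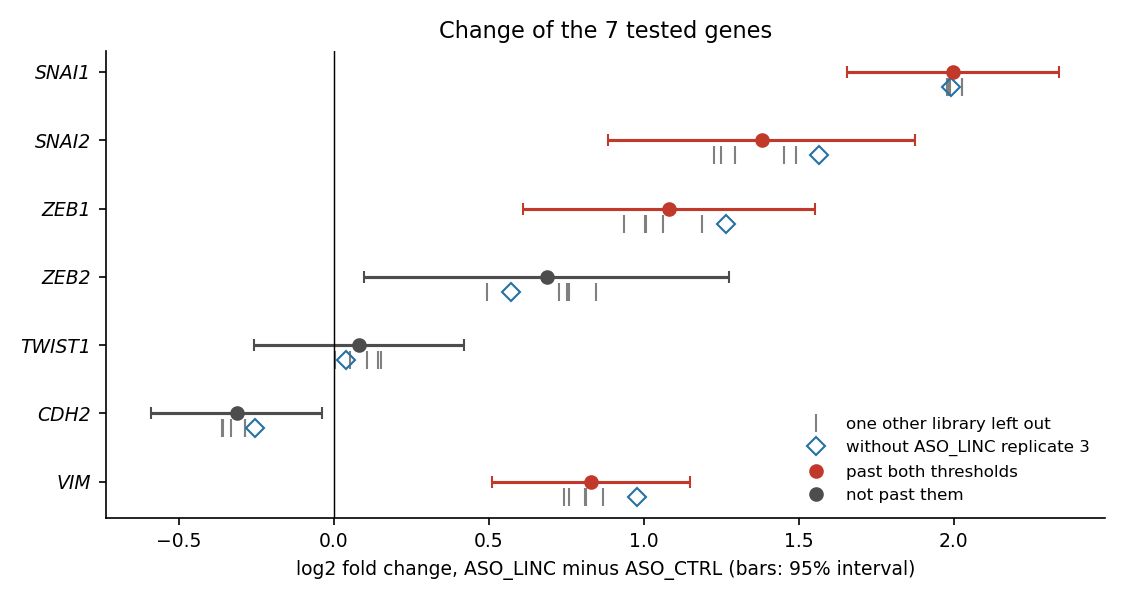
Log2 fold change of the 7 tested genes (ASO_LINC minus ASO_CTRL) with 95% intervals from edgeR, red where both thresholds were passed, and below each the fits that left out 1 library, with the fit without ASO_LINC replicate 3 as a blue diamond. *SNAI1* stays between 1.98 and 2.03 in every fit, and *SNAI2*, *ZEB1* and *VIM* are larger without ASO_LINC replicate 3.

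The 3 ASO_LINC libraries did not respond alike for every gene. For *SNAI1* the log2 changes from the control mean were 1.99, 1.90 and 1.98 in replicates 1, 2 and 3. For *SNAI2* they were 1.63, 1.56 and 0.88, for *ZEB1* 1.21, 1.33 and 0.54, and for *VIM* 0.96, 0.99 and 0.48. On this scale replicate 3 was the weakest for these last genes and close to the others for *SNAI1*. For *ZEB2* it was the highest, with 0.52, 0.52 and 0.91. After correction of every library for GC content and length of the transcript, an alternative chosen after seeing the data, the changes in replicates 1, 2 and 3 were 2.16, 2.09 and 1.77 for *SNAI1*, 1.52, 1.43 and 1.05 for *SNAI2*, 1.01, 1.10 and 0.72 for *ZEB1*, and 1.00, 1.06 and 0.33 for *VIM*. Replicate 3 was then the weakest for *SNAI1* as well. The same 4 genes were called in that fit.

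**Figure D4:**
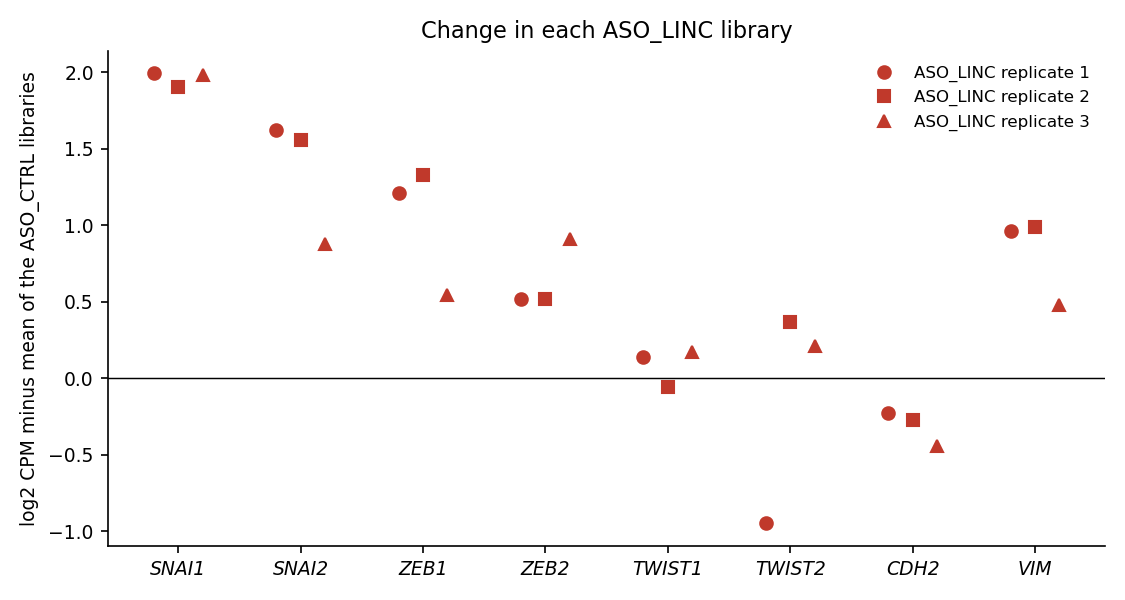
Log2 CPM of each ASO_LINC library minus the mean of the ASO_CTRL libraries for the 8 genes, with replicates 1, 2 and 3 as circle, square and triangle. Replicate 3 lies with the others at 1.98 for *SNAI1* and below them for *SNAI2*, *ZEB1* and *VIM*.

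Relatives and partners of the SNAIL and TWIST factors were measured in 10 of 17 cases, and 8 were tested. None was called higher, 2 were called lower (25% of those tested, against 7.54% of all tested genes called and 2.63% called lower), and the list median was -0.252. Both called genes encode ID proteins, helix-loop-helix proteins without a DNA-binding region that sequester the E-proteins with which TWIST factors pair. *ID2* fell from 161 ± 32.9 to 64.8 ± 3.75 CPM (log2 fold change -1.31, standard error 0.17, edgeR adjusted p = 0.000561), and *ID4* fell from 83.4 ± 8.11 to 39.6 ± 2.26 CPM (log2 fold change -1.07, edgeR adjusted p = 0.000564). The more abundant *ID1* and *ID3* were both at -0.38 on the log2 scale and did not pass (edgeR adjusted p = 0.0445 and 0.0484). The E-protein genes *TCF3* and *TCF12* had log2 fold changes of 0.04 and -0.13, and their conditions overlapped. *SOX9* and *FOXC2*, named after their values were seen, lay on the higher side. *SOX9* was at 2.43 ± 0.690 and 6.04 ± 2.12 CPM (log2 fold change 1.27, edgeR adjusted p = 0.0259) and was not called. *FOXC2* had 3, 2 and 3 reads in ASO_CTRL and 9, 10 and 8 in ASO_LINC, and did not pass the filter on low counts. Of the 8 tested, 2 were higher and 6 lower, and 49.7% of all tested genes were higher.

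Among the other cadherins and the catenins, the cytoplasmic proteins that tie cadherins to actin, 11 of 28 had counts and 10 were tested. None was called higher and 2 were called lower (20% of those tested, against 7.54% of all tested genes called and 2.63% called lower), with a list median of -0.132. *CDH6* (K-cadherin) had 24.9, 26.5 and 26.2 CPM in ASO_CTRL and 5.14, 6.67 and 8.68 CPM in ASO_LINC (log2 fold change -1.96, standard error 0.20, edgeR adjusted p = 0.000172). *CDH8*, best known from neurons, had 12.9, 13.1 and 14.4 CPM in ASO_CTRL and 4.26, 3.08 and 3.25 CPM in ASO_LINC (log2 fold change -1.91, standard error 0.22, edgeR adjusted p = 0.000292). For both cadherins the conditions did not overlap. *CDH24*, named after its values were seen, was at 19.8 ± 1.43 and 10.5 ± 2.58 CPM (log2 fold change -0.92, edgeR adjusted p = 0.0123) and was not called. *CDH11*, a mesenchymal cadherin with a higher CPM than *CDH2*, was at 286 ± 16.0 and 178 ± 45.0 CPM (log2 fold change -0.68, edgeR adjusted p = 0.0238) and was not called. *CDH3* (P-cadherin), named after its values were seen, lay on the other side, at 4.02 ± 0.757 and 8.22 ± 0.726 CPM (log2 fold change 1.04, edgeR adjusted p = 0.0121), and was not called. The α-catenin gene *CTNNA1*, the most abundant of the list by CPM, had a log2 fold change of 0.18 (edgeR adjusted p = 0.385).

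The epithelial programme, a list of 40 junction, desmosome and epithelial regulator genes, had counts for 26, of which 25 were tested. Of these 3 were called higher and 3 lower, with a list median of -0.0342. An unadjusted edgeR p below 0.05 was reached by 15 of the 25, 5 higher and 10 lower, and by 32.4% of all tested genes in either direction. The share called was 24.0%, against 7.54% of all tested genes. The desmosomal genes did not move together. *PKP2* (plakophilin) fell from 129 ± 20.4 to 51.6 ± 6.89 CPM (log2 fold change -1.32, edgeR adjusted p = 0.000445), *PPL* (periplakin) fell by 0.94 on the log2 scale and *DSC3* (desmocollin) fell by 0.88. *DSG2* (desmoglein) rose from 80.3 ± 4.75 to 155 ± 31.4 CPM (log2 fold change 0.95, edgeR adjusted p = 0.00317). *KLF5*, a transcription factor of basal epithelia, rose by 0.72 on the log2 scale. *CLDN4* (claudin-4) had 3, 1 and 5 reads in the control libraries and 24, 17 and 9 in ASO_LINC, and rose past both thresholds from this low level (edgeR adjusted p = 0.00103).

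The mesenchymal programme, with 34 genes of matrix, cytoskeleton and surface receptors, had counts for 30, and 26 were tested. Of these 6 were called higher, 4 were called lower and 16 were not called, with a list median of 0.255. The share called was 38.5%, against 7.54% of all tested genes, 4.91% higher and 2.63% lower. The increases included *LOX* (lysyl oxidase, a collagen cross-linking enzyme), from 267 ± 39.4 to 1390 ± 217 CPM (log2 fold change 2.38, standard error 0.16, edgeR adjusted p = 1.42e-05). *ITGA5*, the α subunit of the fibronectin receptor, rose by 1.76 and *NT5E* (CD73) by 1.28 on the log2 scale. Of the 4 decreases, *COL1A1* fell from 321 ± 61.3 to 125 ± 8.98 CPM (log2 fold change -1.36, edgeR adjusted p = 0.00033), *COL3A1* fell by 1.58 on the log2 scale, *PDGFRB* fell by 1.53 and the abundant *SPARC* fell by 0.63. Another collagen gene, *COL5A1*, had a log2 fold change of 0.28 and was not called (edgeR adjusted p = 0.227). *COL1A1*, *PDGFRB* and *SPARC* also belong to a list the study chose on these samples, so their direction is not independent evidence. The rise of *VIM* was therefore accompanied by changes of mesenchymal genes in both directions.

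Proteins that act with the SNAIL and ZEB factors, among them the co-repressors KDM1A, CTBP1 and HDAC1 and the ubiquitin ligases that clear Snail, were listed as 29 genes, of which 27 were tested. None was called by edgeR and 0 by DESeq2, the list median was -0.0277, and 11 had an unadjusted p below 0.05, as did 32.4% of all tested genes. Of these 11, 6 were higher and 5 lower. *LOXL2*, a lysyl oxidase relative that acts with Snail, had 260 ± 32.6 CPM in ASO_CTRL and 353 ± 33.3 CPM in ASO_LINC (log2 fold change 0.44, edgeR adjusted p = 0.0473), and *AJUBA*, a LIM co-repressor of Snail, had a log2 fold change of -0.32 (edgeR adjusted p = 0.152). Without ASO_LINC replicate 3, 5 of the 27 were called, as were 2616 of the 15176 genes tested in that fit.

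**Figure D5:**
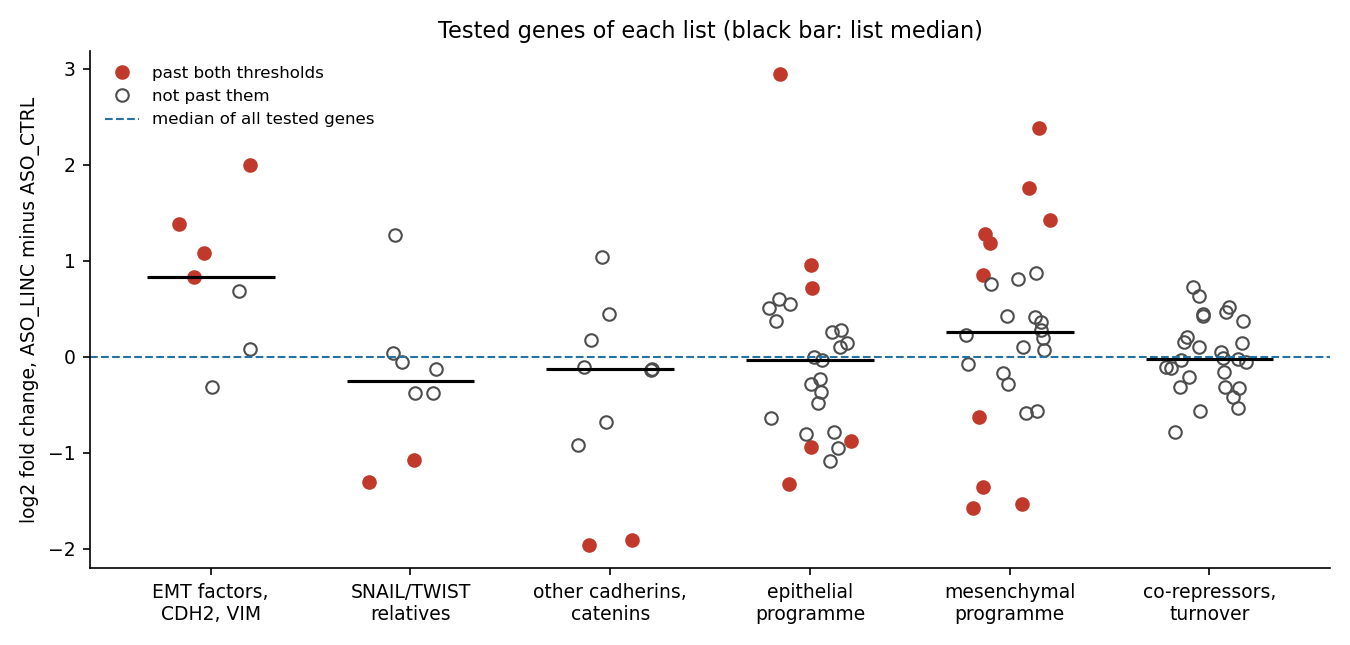
Log2 fold change (ASO_LINC minus ASO_CTRL) of every tested gene in 6 lists, 1 point per gene, filled red where both thresholds were passed, with the list median as a black bar and the median of all 14660 tested genes as a dashed line. The EMT factors with *CDH2* and *VIM* have a median of 0.829, and the called genes of the epithelial and mesenchymal lists lie on both sides of 0.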

How the data were processed

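RNA-seq libraries were primed with oligo-dT. The authors aligned single-end reads to hg19 with STAR (default parameters) and deposited, for each gene name, raw read counts that were neither normalized nor pooled. The counting tool, annotation and strand setting are not given in the sources used here. Reads assigned to no gene, from 24.8% to 28.1% per library, entered neither library sizes nor tests. No column held other samples. Of the names, 21 had been turned into dates.

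Conditions and replicate numbers came from the labels. ASO_LINC was tested against ASO_CTRL with edgeR 4.0.16 in R 4.3.3 (filterByExpr, TMM, quasi-likelihood F-test, Benjamini-Hochberg adjustment), with the thresholds of the study's methods. Intervals are 95% and come from the same fit. Log2 changes of single libraries used a prior count of 2. The fit was tested on simulated data. It called 40 of 100 genes given a log2 change of 1, 98 of 100 given 2, and 6 of 14460 left unchanged. A change of 1 on the log2 scale could therefore often go uncalled. Positions, lengths and GC content were taken from GENCODE genes lifted to GRCh37, matched for 85.6% of the tested genes, and 5 spline degrees of freedom were used for the GC and length correction. Promoter sequences came from RefSeq. Alternatives used DESeq2 1.42.0 and limma 3.58.1 (voom), other scalings, filters and thresholds, the replicate number as a block, and leaving out each library.

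The members and gene lists were chosen with earlier results of these data known. Named genes were all members, up to 6 called genes by smallest p and the 2 with the highest control CPM of each other list, antisense partners, markers used for the cell label, and for each called member the 2 genes with the most similar profile. Of the genes so named, 2 are not reported here. The genes named beyond this rule were chosen after their values were seen.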

Additional observations from a re-analysis of the deposited data

Results flagged for a closer look

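Reads that did not align, which enter no comparison of the report, made up from 15.8% to 16.4% of all reads in the ASO_LINC libraries and from 13.2% to 14.1% in the ASO_CTRL libraries, so that every ASO_LINC library lay above every control library. Their part in the results was not tested.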

How the results depend on the processing

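The 7 EMT genes tested kept the direction of their log2 fold change in all 18 alternatives listed at the start and in the added correction for GC content and transcript length. The settings that changed only the thresholds, the test or the dispersion used the fold changes of the main fit, so direction could not differ there. For *TWIST1* the direction means little, as its log2 fold change was 0.003 without ASO_CTRL replicate 1. The 4 calls held under DESeq2, limma-voom, the 3 other scalings, both other filters, robust dispersion and the added correction. They could not be lost at an adjusted p of 0.05, which applied a looser threshold to the same fit. With glmTreat, which tests against a log2 fold change of 0.5 in place of 0, 1 EMT gene, *SNAI1*, 384 genes in all, 2 of the epithelial and 6 of the mesenchymal list were called. Leaving out 1 library gave from 1 to 4 EMT genes, from 359 to 2616 genes in all, from 2 to 4 cadherins and catenins, from 2 to 11 epithelial, from 5 to 12 mesenchymal and from 0 to 5 co-repressor genes. At an adjusted p of 0.05, 2465 genes in all, 5 cadherins and catenins, 10 epithelial and 3 co-repressor genes were called. DESeq2 called 1597 genes in all, 4 cadherins and catenins and 10 epithelial genes. The GC and length correction called 1674 genes in all, 5 cadherins and catenins and 1 co-repressor gene. The causes were not tested. With the replicate number as a block, 3 EMT genes and 656 genes in all were called, and *ZEB1* lost its call (adjusted p = 0.0174). The deviations of same-numbered libraries from their condition means had correlations across genes of 0.059, -0.149 and -0.18. For differently numbered libraries they ran from -0.142 to 0.194. Deviations from a mean of 3 libraries are tied to each other, so these values cannot decide whether the replicate numbers pair the samples. The few reads of *TWIST2* and *ZEB2* limit what can be said of them.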

Other observations

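The genes whose profile over the 6 libraries was most like that of each called EMT gene were found by the root-mean-square difference of centred log2 CPM, among 10220 genes averaging 50 counts or more. The 6 libraries fall into the 2 conditions, so likeness over them is given as a description. For *SNAI1* the nearest were *ALDOC*, an aldolase of glycolysis, at a difference of 0.0911, and *MAFF*, a small MAF transcription factor, at 0.111, where the median gene was at 1.01. For *SNAI2* they were *MME* (neprilysin), at 0.0741, and *TSC22D1*, at 0.105, with a median of 0.779. For *ZEB1* they were *ARHGAP29*, at 0.0462, and *ZNF160*, at 0.0917, with a median of 0.623. For *VIM* they were *UACA*, at 0.0413, and *SAMD8*, at 0.0469, with a median of 0.496.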
